A study of Homo sapiens with 34 samples.

Results

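The human olfactory receptor genes of chromosome 11 were followed through 20 lists of regions called from CUT&RUN, a method in which a nuclease tethered by an antibody releases the DNA beside the antibody's target. The genes were taken by name and place: protein-coding genes of chromosome 11 whose symbol is OR, a number, letters and a number, as in OR4C3. This gave 171 of 19974 protein-coding genes on chromosomes 1 to 22 and X. OR9G9, OR8U8 and OR8U9 have no position on the primary chromosome in the annotation, so 168 receptor genes were measured, among 19821 genes with a position. A gene counted as occupied in a library when at least 1 bp of a called region fell within the gene or within 1 kb of either end.

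U2OS cells, a line from a human osteosarcoma, were held by a double thymidine block and released for 3 h into S phase. All had received an siRNA for 72 h, either siOrc6 against the origin recognition subunit Orc6 or the control siGl3, and were then given 5 mM H2O2 for 30 min or left non-treated (NT). The antibodies were against OGG1, the glycosylase that removes 8-oxoguanine, SMARCA1, the motor of an ISWI-type chromatin remodeller, and Orc6. OGG1 and SMARCA1 each had 4 groups, H2O2 in siOrc6 cells, H2O2 in siGl3 cells, NT in siOrc6 cells and NT in siGl3 cells, while Orc6 had H2O2 and NT in siGl3 cells. Each of these 10 groups had 2 libraries, and the labels do not say that the replicates came from separate cultures. The other 14 of 34 samples, IgG libraries among them, were not analysed here.

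Olfactory receptors are G protein-coupled receptors that detect odorants, and they form the largest gene family of the human genome. Each olfactory sensory neuron is known to transcribe a single receptor gene, while in other tissues nearly all of the family is silent and packed in compact chromatin. The genes lie in tandem clusters, and each coding sequence is short and usually in a single exon. Expression was not measured in these samples, so neither the silence of the receptors nor the knockdown of Orc6 is checked by the lists. The lists hold no read counts, and their depth is unknown.

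The receptor genes of chromosome 11 were nearly bare of called regions. Of the 168 genes, 143 (85.1%) had no region of any antibody in any of the 20 lists, against 71 of the 1129 other protein-coding genes of chromosome 11 (6.29%) and 1936 of all 19821 genes (9.77%). Of 3360 pairs of a receptor gene and a list, 97 were occupied (2.89%), against 63.2% among the other genes of the chromosome. The median receptor gene was in 0 lists and the median other gene of chromosome 11 in 14 of 20. The 219 receptor genes of other chromosomes stood between these values, with 148 (67.6%) in no list and 7.65% of pairs occupied. These are counts over a gene list chosen with earlier results of these data known, and no test was put on them.

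The bareness extended over the space around the genes. The median distance from a receptor gene, with its 1 kb margins, to the nearest region ranged from 45.5 kb in replicate 1 of OGG1 in H2O2-treated siOrc6 cells to 760 kb in replicate 1 of SMARCA1 in NT siGl3 cells. For the other genes of chromosome 11 that median was 0 kb in 16 of 20 lists, which restates that most of them were occupied there. With margins these other genes were longer, at a median of 20221 bp against 3103 bp. Regions covered between 0% and 4.30% of the bases of the receptor genes and their margins, against between 1.03% and 40.6% of the bases of the other genes.

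Libraries differed widely in the length of their lists. H2O2 lists of OGG1 held 73301 to 132408 regions and its NT lists 17813 to 33435. For SMARCA1 the ranges were 35381 to 69927 regions after H2O2 and 6992 to 14791 in NT cells, and for Orc6 they were 37154 to 52937 after H2O2 and 23375 to 63692 in NT cells. By the share of bases covered in both of a pair of lists, 9 of 20 libraries were nearest to their own replicate. Replicate 2 of OGG1 in NT siOrc6 cells stood apart, with 23.9% of bases in common with the other replicate and 39.2%, its most, with an Orc6 library of H2O2-treated siGl3 cells. The 2 SMARCA1 libraries of H2O2-treated siGl3 cells had 18.6% of bases in common with each other. Both were nearest to replicate 1 of Orc6 in NT siGl3 cells, at 19.4% for replicate 1 and 21.5% for replicate 2. The 4 SMARCA1 lists of siOrc6 cells carry a resubmission mark in their names and no SMARCA1 list of siGl3 cells does, so that mark and the siRNA cannot be told apart for this antibody.

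OGG1 after H2O2 was the antibody and treatment that reached the receptor genes most often. In H2O2-treated siOrc6 cells the 2 OGG1 libraries occupied 18 and 7 receptor genes, and in H2O2-treated siGl3 cells 14 and 13. In NT siOrc6 cells OGG1 occupied 1 and 3, and in NT siGl3 cells 0 and 1. The 4 H2O2 libraries all lay above the 4 NT libraries, the NT library that stood apart included. SMARCA1 occupied 1 and 4 receptor genes in H2O2-treated siOrc6 cells, 8 and 1 in H2O2-treated siGl3 cells, 2 and 1 in NT siOrc6 cells, and 0 and 1 in NT siGl3 cells. The SMARCA1 values after H2O2 overlapped those of NT cells. Orc6 occupied 7 and 5 receptor genes after H2O2 and 3 and 7 in NT cells, so these groups overlapped too. Over other chromosome 11 genes the OGG1 libraries also separated, at 87.7% to 90.8% after H2O2 and 58.4% to 66.4% in NT cells. Those of SMARCA1 separated there too, at 57.7% to 82.1% and 11.2% to 55.4%. Those of Orc6 overlapped there, at 59.3% to 69.2% and 48.0% to 65.9%.

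**Figure D1:**
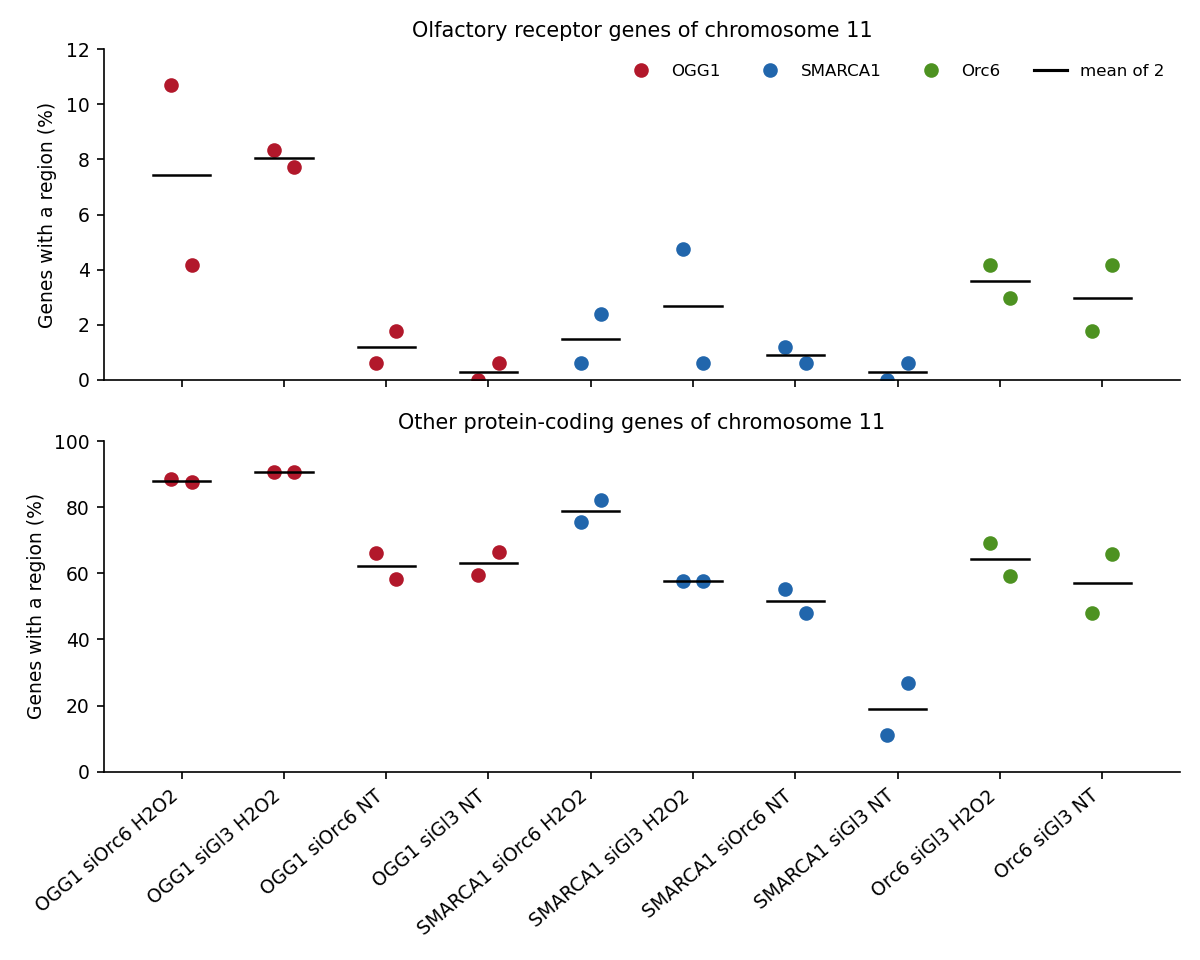
Share of genes with a region, in percent, by library, for the receptor genes of chromosome 11 (top, axis to 12%) and the other protein-coding genes of the chromosome (bottom, axis to 100%). Points are libraries and bars the mean of 2; receptor genes reached at most 10.7% in any library, and the other genes lay between 11.2% and 90.8%.

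Of the 97 occupied pairs, OGG1 after H2O2 held 52 (53.6%), SMARCA1 after H2O2 14, Orc6 after H2O2 12, Orc6 in NT cells 10, OGG1 in NT cells 5 and SMARCA1 in NT cells 4. These numbers rest on 4 libraries for each treatment of OGG1 and SMARCA1 and on 2 for each of Orc6. OR56B1 lies inside OR52N4, and the same regions occupied both in the same 9 lists, all 4 Orc6 lists among them. The pairs count those regions for each of these genes. Of the 25 receptor genes with a region in 1 list or more, 24 (96.0%) were reached by OGG1 after H2O2, a share near the 99.0% of all 17885 protein-coding genes with a region. For 12 of them (48.0%) nothing else reached the gene, against 38.0% of such receptor genes of other chromosomes and 4.25% of all such genes. OR8G5 was the 1 gene of the 25 without an OGG1 region, with 1 region, of SMARCA1 in H2O2-treated siGl3 cells. OGG1 in NT cells reached 4 receptor genes, SMARCA1 reached 11 of which 2 in NT cells, and Orc6 reached 9. Every one of the 25 was in a list of H2O2-treated cells, as were 99.9% of all genes with a region. In a list of NT cells were 9 (36.0%), against 47.9% of such receptor genes of other chromosomes and 88.2% of all such genes.

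With OGG1 over both siRNAs, 7.74 ± 2.71% of receptor genes were occupied after H2O2 and 0.744 ± 0.749% in NT cells (mean ± SD, n = 4 libraries each), a difference of 6.99 percentage points. Within batch 1 the difference was 9.23 points and within batch 2 it was 4.76 points. Over the other genes of chromosome 11 the OGG1 difference was 26.7 points, with 89.4 ± 1.59% after H2O2 and 62.6 ± 4.25% in NT cells. When each list was held to its 6992 regions of highest total signal, the length of the shortest list, OGG1 reached 0 receptor genes both after H2O2 and in NT cells, so no difference could show there. At that length Orc6 in NT cells reached 1 receptor gene, and no other antibody and treatment reached any.

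Tested gene by gene, 3 receptor genes rose in OGG1 occupancy after H2O2. OR51B5, OR52K1 and OR52N2 were each occupied in 4 of 4 OGG1 libraries of H2O2-treated cells and in 0 of 4 of NT cells (Fisher's exact test, two-sided, p = 0.0286, the smallest p that 4 against 4 allows, adjusted p = 0.0323 by Benjamini-Hochberg over 1760 testable genes). Among those 1760 genes, 1559 were higher after H2O2, a background of 88.6%, and 0 were lower. The receptor genes gave 3 calls among 5 that could be tested, since only a gene occupied in 4 of the 8 libraries can reach a p under 0.05. The other 163 were in fewer or more than 4 of the 8 OGG1 libraries, most of them in none. Every call of the whole table, those of the 3 receptor genes included, was lost when any 1 of the 4 OGG1 libraries of H2O2-treated cells was left out, and without replicate 2 of OGG1 in NT siGl3 cells OR2AT4 was added. With the upper 50% of each list by total signal none of the 3 was called, and OR2AT4 and OR9Q1 were called in their place. The count was 0 with 50% of the extended gene covered and with adjustment over every gene.

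Over all 3 antibodies, OR51B5 and OR52K1 rose after H2O2. OR51B5 was occupied in 7 of 10 H2O2 libraries and 1 of 10 NT libraries (exact conditional test within antibody and siRNA, two-sided, adjusted p = 0.0347). OR52K1 was in 5 of 10 H2O2 libraries and 0 of 10 NT libraries (adjusted p = 0.0489 by the same exact test). OR52N2, with 7 of 10 against 1 of 10, and OR2AT4, with 6 of 10 against 1 of 10, missed the threshold (adjusted p = 0.0572 and 0.0575 by the same exact test). Thus 2 of 4 testable receptor genes were called, beside 2911 of 5125 testable genes higher after H2O2, a background of 56.8%, and 1 lower (0.0195%). With the gene body alone the 1 call was OR51B5, and with the upper 50% of each list it was OR2AT4. The count was 0 with gene ends alone, with 50% of the extended gene covered, without regions over 10 kb and with adjustment over every gene. It was also 0 without replicate 1 of Orc6 in NT siGl3 cells and 4 without replicate 2 of Orc6 in H2O2-treated siGl3 cells. OR51B5 alone remained when any 1 OGG1 library of H2O2-treated cells, SMARCA1 library of NT siGl3 cells, replicate 2 of SMARCA1 in H2O2-treated siOrc6 cells, or replicate 1 of SMARCA1 or of Orc6 in H2O2-treated siGl3 cells was left out. With the replicate number as a block OR51B5 was likewise the 1 call.

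For SMARCA1, 2.08 ± 1.97% of receptor genes were occupied after H2O2 and 0.595 ± 0.486% in NT cells (mean ± SD, n = 4 libraries each). The difference of 1.49 points was smaller than the SD of the H2O2 libraries. It was 2.08 points within batch 1 and 0.893 points within batch 2. Replicate 1 of SMARCA1 in H2O2-treated siGl3 cells held 8 of the 14 pairs of SMARCA1 after H2O2, and without it the difference was 0.595 points. The other genes of the chromosome differed by 32.9 points over the same libraries. No receptor gene could be tested for SMARCA1, and Fisher's exact test called 0 of 2061 testable genes of the whole table (0%), with 1003 higher and 4 lower at an unadjusted p under 0.05. Every gene with 4 of 4 against 0 of 4 shares the smallest p of this test, so adjustment can pass only where a large share of the testable genes has that pattern. A count of 0 from it does not show that the genes did not differ. Of the 11 receptor genes with a SMARCA1 region, 9 were in more H2O2 libraries, OR10V1 in more NT libraries, and OR9Q1 in 3 of each. That share of 81.8% in more H2O2 libraries stood beside 82.3% of all 16629 genes with a SMARCA1 region.

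Orc6 occupied 3.57 ± 0.842% of receptor genes after H2O2 and 2.98 ± 1.68% in NT cells (mean ± SD, n = 2 each). The difference of 0.595 points did not exceed that spread and turned with the batch, at 2.38 points in batch 1 and -1.19 points in batch 2. The other genes of the chromosome turned with it, at 21.2 points in batch 1 and -6.64 points in batch 2. In batch 2 the NT list was the longer, with 37154 regions after H2O2 and 63692 in NT cells.

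The share of receptor genes occupied differed little between siOrc6 and siGl3 cells, and a change at single receptor genes could not be detected. Of the 25 receptor genes with a region, 8 were in more siOrc6 lists and 12 in fewer (32.0% and 48.0%). Among all genes with an OGG1 or SMARCA1 region these shares were 65.1% and 10.9%. OGG1 occupied 4.32% of the 168 receptor genes in siOrc6 cells and 4.17% in siGl3 cells, a difference of 0.149 points. This difference was 1.49 points within batch 1 and -1.19 points within batch 2. SMARCA1 occupied 1.19% in siOrc6 cells and 1.49% in siGl3 cells, a difference of -0.298 points, while over the other genes of the chromosome SMARCA1 was 26.9 points higher in siOrc6 cells. No receptor gene could be tested, and the exact conditional test called 0 of 495 testable genes (0%), with 47 higher and 0 lower at an unadjusted p under 0.05. The widest gap of a single receptor gene was at OR9Q1, which was in 8 of 8 siOrc6 libraries and 4 of 8 siGl3 libraries (exact conditional test, two-sided, unadjusted p = 0.0833). This gap at OR9Q1 was singled out after its values were seen, and 4 of those 8 siOrc6 lists are the resubmitted ones.

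Between antibodies, no receptor gene passed a test. OGG1 reached more lists than SMARCA1 for 21 of the 25 genes and fewer for OR8G5 and OR8D1. That share of 84.0% stood beside 80.9% of all genes with a region of either antibody. The exact conditional test called 0 of 1852 testable genes (0%), with 994 higher and 0 lower at an unadjusted p under 0.05, and neither of the 2 testable receptor genes. In siGl3 cells, Orc6 against SMARCA1 gave 0 calls among 1500 testable genes (0%) by Fisher's exact test, with 143 higher and 1 lower unadjusted. OGG1 against Orc6 gave 0 among 1477 (0%), with 494 higher and 3 lower unadjusted. Only 1 receptor gene was testable for Orc6 against SMARCA1 and 2 for OGG1 against Orc6. OR52N4 and OR56B1 were occupied in 1 of 4 OGG1 libraries and 4 of 4 Orc6 libraries of siGl3 cells, and OR9Q1 in 2 of 4 and 4 of 4. These genes were not testable in that comparison.

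**Figure D2:**
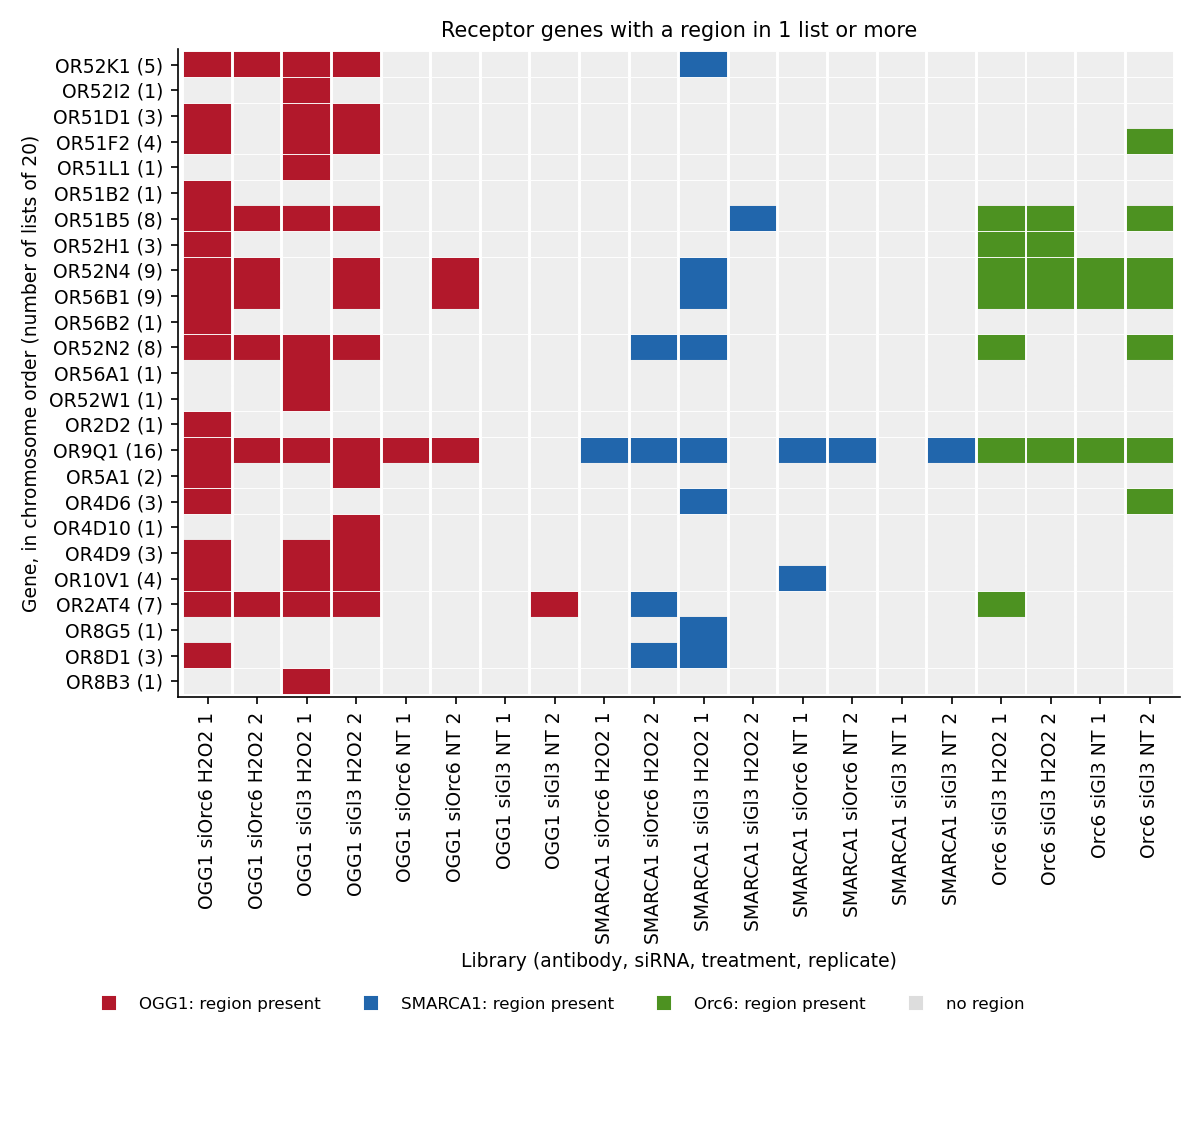
The 25 receptor genes with a region, in chromosome order from top to bottom, against the 20 libraries; a coloured square is a library with a region on the gene and the number after each name counts its lists. The 4 columns of OGG1 after H2O2 hold 52 of the 97 coloured squares, and OR9Q1 has the fullest row with 16.

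The 25 genes differed in how often they were found. There were 10 in a single list, 9 in 2 to 5 lists, 6 in 7 or more, and 0 in all 20. Both replicates of some group agreed for 12 of them, and 13 were never found in both replicates of any group. Named by the number of lists, the leading genes were OR9Q1, OR52N4, OR56B1, OR51B5, OR52N2 and OR2AT4.

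OR9Q1 was in 16 of 20 lists: 4 of 4 of OGG1 after H2O2, 2 of 4 of OGG1 in NT cells, 3 of 4 of SMARCA1 after H2O2, 3 of 4 of SMARCA1 in NT cells, and 4 of 4 of Orc6. It is a receptor gene annotated over 157736 bp, at chr11:58023881-58181616. In 15 of the 16 lists a region took in the same stretch of 138 bp, chr11:58061000-58061137, which lies 37.2 kb downstream of the annotated start. No list had a region on its promoter. OR6Q1 and OR9I1, receptor genes that lie wholly inside the span of OR9Q1, were in 0 lists.

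OR51B5, at chr11:5340318-5505652, spans 165335 bp next to the beta-globin genes and was in 8 lists. These were 4 of 4 of OGG1 after H2O2, 0 of 4 of OGG1 in NT cells, 1 of 4 of SMARCA1 after H2O2, 0 of 4 of SMARCA1 in NT cells, 2 of 2 of Orc6 after H2O2 and 1 of 2 of Orc6 in NT cells. In 6 of these lists a region took in chr11:5363825-5364716. The 6 receptor genes that lie inside its span, OR51B6, OR51M1, OR51Q1, OR51I1, OR51I2 and OR52D1, were in 0 lists. For OR9Q1 and OR51B5 the occupied sequence was thus away from every shorter receptor gene within them.

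OR52N4 and OR56B1 were in the same 9 lists. OR56B1 lies inside OR52N4, and 1 region in each of the 9 lists took in chr11:5737932-5738615, at the end of OR56B1. The lists were 3 of 4 of OGG1 after H2O2, 1 of 4 of OGG1 in NT cells, 1 of 4 of SMARCA1 after H2O2, 0 of 4 of SMARCA1 in NT cells and 4 of 4 of Orc6. The OGG1 list of NT cells was the library that stood apart. With OR9Q1 these were the 3 receptor genes found in all 4 Orc6 lists.

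OR52N2, at chr11:5808924-5821483, was in 8 lists, and 1 region in each of the 8 took in chr11:5808611-5809039, on its annotated start. They came from 4 of 4 OGG1 libraries after H2O2, 2 of 4 SMARCA1 libraries after H2O2, 1 of 2 Orc6 libraries after H2O2 and 1 of 2 Orc6 libraries in NT cells, with 0 of 4 OGG1 and 0 of 4 SMARCA1 libraries in NT cells. OR2AT4, a receptor also known from skin keratinocytes, lies alone at chr11:75081753-75096890, far from the clusters, and was in 7 lists. Those were 4 of 4 of OGG1 after H2O2, 1 of 4 of OGG1 in NT cells, 1 of 4 of SMARCA1 after H2O2 and 1 of 2 of Orc6 after H2O2. With the highest-ranked region taken in each list, OR2AT4 had the highest mean rank of the 25 genes. It stood at the 64.3 percentile of total signal within the lists. OR52K1 was in 5 lists, 4 of 4 of OGG1 after H2O2 and 1 of 4 of SMARCA1 after H2O2, and in 4 of them a region took in chr11:4492975-4493832 at its far end.

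Next in number of lists were OR51F2 and OR10V1 with 4 each. OR52H1, OR51D1, OR4D6, OR4D9 and OR8D1 were in 3 each. OR52H1 was taken first among them by the mean rank of the highest-ranked region in each list. At both OR51F2 and OR10V1 the stretch common to the most lists, 4 and 3 of them, lay in the 1 kb margin outside the annotated gene. OR52H1 had 2 Orc6 lists and 1 OGG1 list, all after H2O2. At the other end, OR51E1 and OR51E2, receptors known for their expression in prostate, were among the 143 genes with no region, as were OR52B4, OR52K2, OR52M1, OR52I1, OR51C1, OR51F1, OR52R1 and OR51S1.

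The promoters of the occupied and the bare genes are printed for OR52N2 and OR56B1, whose promoters were in the most lists, for OR9Q1, the gene in the most lists, and for OR5AK2, a gene in no list at the end of the second largest cluster. FAU, which encodes a ribosomal protein and whose promoter was in 16 lists, is set beside them. Each runs 5′ to 3′ from 250 bases before to 50 after the annotated start (RefSeq, GRCh38.p14), with CpG, the dinucleotide at which human DNA is mainly methylated, in capitals.
OR52N2, chr11:5808674-5808973, plus strand: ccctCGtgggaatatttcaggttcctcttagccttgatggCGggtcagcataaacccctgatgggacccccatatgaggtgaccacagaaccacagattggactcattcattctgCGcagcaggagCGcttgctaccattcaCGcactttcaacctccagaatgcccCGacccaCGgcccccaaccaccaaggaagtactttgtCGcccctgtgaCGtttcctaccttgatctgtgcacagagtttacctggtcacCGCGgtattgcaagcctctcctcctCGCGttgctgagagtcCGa
OR56B1, chr11:5736198-5736497, plus strand: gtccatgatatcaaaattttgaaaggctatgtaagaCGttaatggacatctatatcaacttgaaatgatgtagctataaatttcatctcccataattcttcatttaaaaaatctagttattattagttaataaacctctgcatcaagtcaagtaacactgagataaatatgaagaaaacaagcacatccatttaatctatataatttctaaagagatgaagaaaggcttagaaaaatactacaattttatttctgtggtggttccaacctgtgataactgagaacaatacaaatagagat
OR9Q1, chr11:58023631-58023930, plus strand: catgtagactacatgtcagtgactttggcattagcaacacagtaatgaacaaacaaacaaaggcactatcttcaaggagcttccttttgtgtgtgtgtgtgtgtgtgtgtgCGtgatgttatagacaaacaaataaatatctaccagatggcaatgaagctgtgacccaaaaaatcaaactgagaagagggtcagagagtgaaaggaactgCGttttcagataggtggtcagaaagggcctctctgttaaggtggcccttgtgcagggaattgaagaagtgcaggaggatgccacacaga
OR5AK2, chr11:56988664-56988963, plus strand: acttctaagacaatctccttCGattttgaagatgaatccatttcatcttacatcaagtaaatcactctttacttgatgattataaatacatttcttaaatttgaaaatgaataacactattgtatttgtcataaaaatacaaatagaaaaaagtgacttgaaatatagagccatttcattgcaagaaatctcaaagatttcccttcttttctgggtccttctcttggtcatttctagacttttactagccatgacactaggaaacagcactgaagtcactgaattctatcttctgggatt
FAU, chr11:65122085-65122384, minus strand: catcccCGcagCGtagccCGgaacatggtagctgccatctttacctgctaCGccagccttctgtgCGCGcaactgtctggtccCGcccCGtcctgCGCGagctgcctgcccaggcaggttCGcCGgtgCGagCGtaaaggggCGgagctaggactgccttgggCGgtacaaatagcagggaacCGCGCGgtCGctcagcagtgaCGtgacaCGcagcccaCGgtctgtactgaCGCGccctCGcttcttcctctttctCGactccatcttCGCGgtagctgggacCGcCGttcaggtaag
The OR52N2 sequence holds 14 CpG, the most of the 135 receptor promoters held, and was in 8 lists. That of OR56B1 holds 1 CpG and was also in 8 lists. OR9Q1 holds 2 and OR5AK2 1, both in 0 lists, and FAU holds 31.

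Promoter sequences were held for 135 of the 168 receptor genes. Their median GC content was 37.0% and their median number of CpG 1 in 300 bases, against 62.0% and 22 for 818 other genes of chromosome 11. Regions of any list fell on 10 of the 135 receptor promoters, against 730 of the 818. Among promoters with 0 to 5 CpG alone, 0.940% of receptor promoter and list pairs were occupied, against 19.2% for the other genes of the chromosome with so few CpG and 3.66% for receptor genes of other chromosomes. The receptor promoters were therefore barer than other promoters poor in CpG on the same chromosome, by these counts and without a test. On both strands, the letters TATAAA stood in 35.6% of receptor promoters of chromosome 11, 34.5% of those of other chromosomes and 9.75% of all promoters. TAATTA, a core bound by homeodomain proteins, stood in 24.4%, 21.5% and 3.36% of the same 3 sets. The letters CCCNNGGG, the core of EBF sites, stood in 8.15%, 7.91% and 21.5%. A longer form of that core, with a T before it and an A after it, stood in 1.48%, 0.565% and 1.41%. The longer form was thus not rarer in receptor promoters of chromosome 11 than in all promoters, though only 2 of the 135 held it. Base composition differed alongside, with a median GC content of 37.0%, 38.3% and 62.7%, and its part in these shares was not tested. A match of letters is a description of the window and not a bound site.

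**Figure D3:**
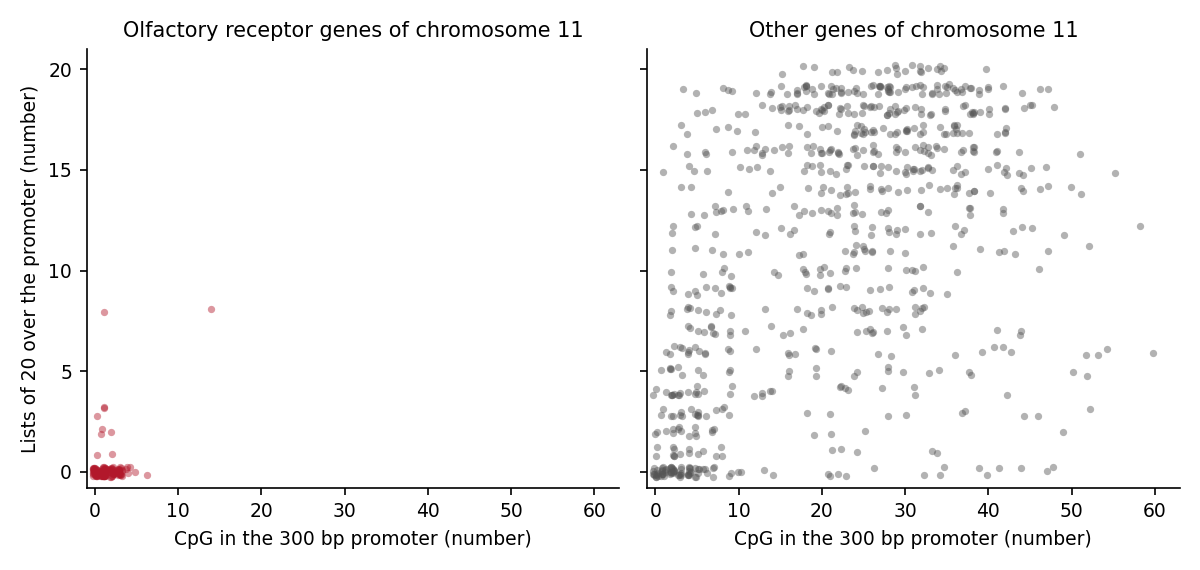
Number of lists with a region on the 300 bp promoter against the number of CpG in it, for 135 receptor genes (left) and 818 other genes (right) of chromosome 11; points are genes, shifted slightly so that they do not hide each other. Receptor promoters crowd at 0 lists and a median of 1 CpG, and OR52N2 with 14 CpG and 8 lists stands alone.

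Occupied receptor genes sat in some clusters and not in others. With neighbours under 1 Mb apart and 5 genes or more to a cluster, 165 receptor genes fell into 5 clusters. The largest, from OR52B4 to OR10A3 at chr11:4367263-7941708, held 67 receptor genes, of which 15 were occupied in 1 list or more. The cluster from OR9Q1 to OR10V1, at chr11:58023881-59713845, held 21, of which 6 were occupied, and that from OR6X1 to OR8A1, at chr11:123753580-124571374, held 22, of which 3 were. In contrast, 0 of 48 were occupied from OR4C46 to OR5AK2, at chr11:54603069-56989843, and 0 of 7 from OR4B1 to OR4A47, at chr11:48216810-48489722. OR2AT4 was the 1 occupied gene of the 3 outside any cluster, beside OR4C12 and OR4C13.

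The bare clusters were bare throughout their span and not at the genes alone. Across the 2.39 Mb from OR4C46 to OR5AK2, 10 of 20 lists had no region at all, and the list with the most covered 0.760% of the bases. Between OR4B1 and OR4A47, 19 of 20 lists had none. For comparison, OGG1 after H2O2 covered 27.2% of chromosome 11 on average, 9.94% of the span from OR52B4 to OR10A3, 16.2% of that from OR9Q1 to OR10V1 and 0.821% of that from OR6X1 to OR8A1. The sources do not say how reads aligning to several places were treated, and the part of such reads in these counts was not tested.

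Other protein-coding genes inside the clusters were occupied where their receptor neighbours were not. Of 61 such genes, 50 were in 1 list or more and 46.6% of their pairs with a list were occupied, at a median of 11 lists. In the cluster from OR52B4 to OR10A3 this held for 36 of 43 genes, among them TAF10, a subunit of the general transcription factor TFIID, in 18 lists, TPP1, a lysosomal peptidase, in 18 and ILK, the integrin-linked kinase, in 17. In the cluster from OR9Q1 to OR10V1 it held for 14 of 14, with LPXN and ZFP91 in 20 lists each and FAM111A and FAM111B in 19 each. In the remaining clusters it held for none: TRIM48 and TRIM51, between OR4C46 and OR5AK2, were in 0 lists, as were TMEM225 and VWA5A between OR6X1 and OR8A1. The beta-globin genes, which are silent outside red cell precursors and lie among the receptors of the largest cluster, were reached in 1 of 5 cases: HBD, HBG1, HBG2 and HBE1 were in 0 lists and HBB in 2, both of SMARCA1 after H2O2.

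**Figure D4:**
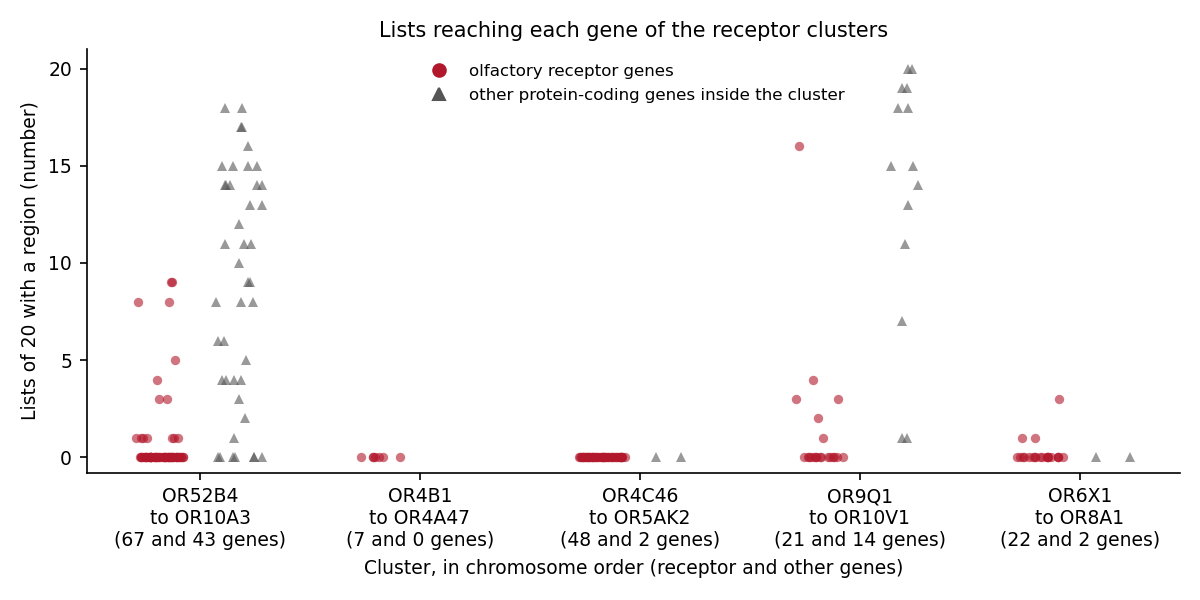
Number of lists of 20 that reached each gene of the 5 receptor clusters, with receptor genes as red circles left and other protein-coding genes as grey triangles right; points are genes, spread sideways at random. In the clusters starting at OR52B4 and OR9Q1 the other genes reach 18 and 20 lists while most receptor genes lie at 0.

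Longer receptor genes were occupied more often, and the window searched grows with the gene. The median length of the 25 occupied genes was 9849 bp and that of the 143 bare genes 1036 bp. Under 2 kb, 6 of 92 receptor genes were in 1 list or more, against 48 of 68 other genes of chromosome 11. From 2 to 10 kb it was 7 of 56 against 286 of 318, and over 10 kb 12 of 20 against 724 of 743. The receptor genes of each length class were thus in fewer lists than other genes of that class. Receptor genes of other chromosomes had 26 of 92, 21 of 75 and 24 of 52 in the same 3 classes. The occupied share of gene and list pairs over 10 kb was 15.5% for receptor genes of chromosome 11 and 14.0% for those elsewhere, and under 2 kb it was 0.761% and 5.00%.

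**Figure D5:**
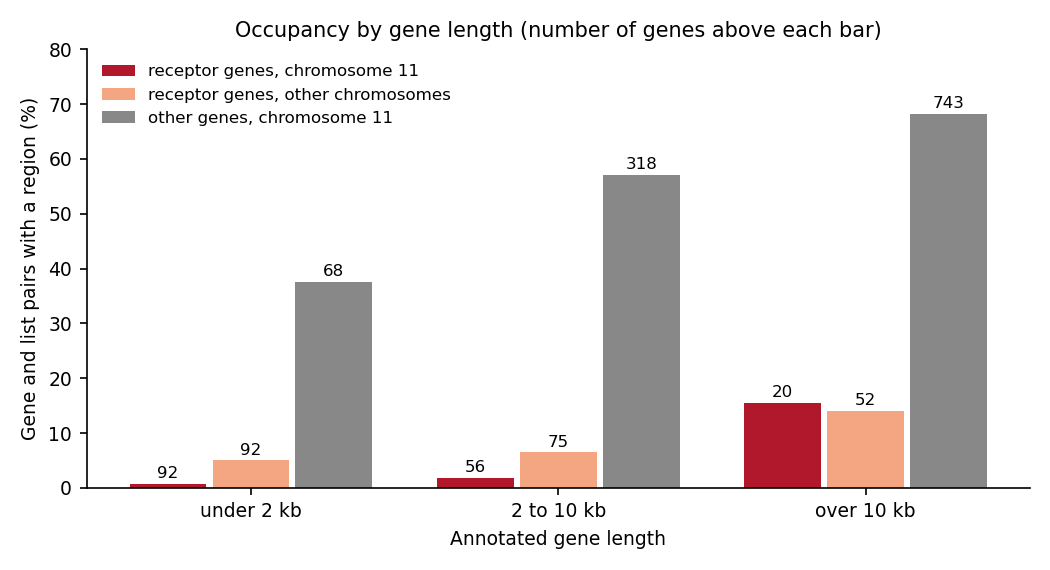
Share of gene and list pairs with a region, in percent, by annotated gene length, for receptor genes of chromosome 11, receptor genes of other chromosomes and other genes of chromosome 11; the number over each bar is the number of genes. In all 3 classes the bar of other chromosome 11 genes is at least 37.6% and that of the receptor genes of chromosome 11 at most 15.5%.

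Most genes that serve the receptors in the sensory neuron did not share their bareness, though gene length was not matched here. Of 15 genes of olfactory signalling, 14 were in 1 list or more, at a median of 15 lists, beside 14 for all protein-coding genes. OMP, the olfactory marker protein of mature sensory neurons, was in 15 lists and CNGA4, a subunit of the olfactory ion channel that lies inside the largest receptor cluster, in 13. GNAL, the G protein of olfactory transduction, was in 20 and ADCY3, its adenylyl cyclase, in 18. CNGA2, the principal subunit of that channel, was in 0, and RTP2 was in 6. RTP1, a chaperone that carries receptors to the cell surface, was in 4 lists, all of OGG1 after H2O2, and was called in that comparison (4 of 4 against 0 of 4 libraries). It was the 1 testable gene of the 15, beside the background of 88.6% of testable genes called. For comparison, 28 of 28 widely expressed genes of chromosome 11 were occupied, at a median of 18 lists, and so were the bone genes RUNX2, SP7, COL1A1, COL1A2 and SPARC, in 8 to 20 lists.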

How the data were processed

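Per the submitters' processing notes, SEACR 1.1, Bowtie2, DESeq2, DiffBind, SAMtools, deepTools and bedtools were used on hg38, without stated roles. Each deposited list holds the regions of 1 library with a total and a maximum signal per region. The sources used here do not give the normalization or control of that deposited signal, nor how reads aligning to several places were treated. Signal was used inside a single list alone, for ranking regions. Groups and replicate numbers came from sample titles. Gene positions and promoters came from RefSeq (GRCh38.p14). Rows with scaffold coordinates were left out, so 168 of 171 receptor genes were placed.

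A gene was occupied when a region overlapped it, extended by 1 kb, by 1 bp. Occupancy was tested per gene over all 19821 genes: H2O2 against NT, siOrc6 against siGl3 and OGG1 against SMARCA1 by an exact conditional test within strata of the other factors, and the comparisons of 4 against 4 libraries by Fisher's exact test. All tests were two-sided, with Benjamini-Hochberg adjustment over genes whose totals can reach p under 0.05, and threshold 0.05. P-values measure the spread between these libraries. Both tests were checked on simulated data. In 4 against 4 libraries every all-or-none gene shares the smallest p, so adjustment passes only where such genes are a large share of those testable, and 0 calls there does not show that genes did not differ.

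Batch and replicate number coincide in the labels, so samples of the same number were taken as paired, and that pairing was not tested. Replicate 1 had more receptor genes occupied in 5 of 10 groups and replicate 2 in 5, a split that does not test the pairing. The members, gene lists and tests were chosen with earlier results of these data known. Receptor genes were named by a rule: those that passed a test, the 10 in the most lists, up to 10 in the fewest, and the ends of each cluster. Those named beyond it were chosen after their values were seen. Alternatives changed the block, the adjustment, the window and its overlap, the rank and width of regions, the size of lists and the libraries used; leaving out single libraries and the alternatives of the 2 Orc6 comparisons were added after the data were seen. The authors' deposited windows hold a score of 0 in every row, so their positions alone were read. A list of the whole series was not used. The software was scipy 1.17.1, pandas 2.3.3, numpy 2.4.6 and matplotlib 3.10.9 under Python 3.11.15.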

Additional observations from a re-analysis of the deposited data

How the results depend on the processing

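The 5 comparisons with 0 called receptor genes stayed at 0 under every alternative that could be run. In the main setting 0 receptor genes were testable for SMARCA1 with H2O2 and 0 for siOrc6. There were 2 for OGG1 against SMARCA1, 1 for Orc6 against SMARCA1 and 2 for OGG1 against Orc6. With so few testable, these counts of 0 were fixed or nearly fixed in advance and show no stability. For H2O2 over all antibodies (2 called) the count was 1 with the gene body alone (OR51B5) and 1 with the upper 50% of each list by signal (OR2AT4), 4 with 5 kb margins, 1 with the replicate block, and 0 with gene ends, with 50% of the gene covered, with lists of equal length or equal bases, without regions over 10 kb and with adjustment over every gene. Leaving out 1 library gave 0 to 4. For OGG1 (3 called) it was 2 in the upper 50% (OR2AT4 and OR9Q1, none of the 3), 0 with 50% of the gene covered, equal length, equal bases or adjustment over every gene, and 0 to 4 when 1 library was left out. The OGG1 difference (6.99 points) was 10.1 with 5 kb margins, 0.893 with 50% covered, 2.38 in the upper 50% of each list and 0 with equal length or equal bases, where OGG1 reached no receptor gene in H2O2-treated or NT cells and no difference could show, and 4.76 to 9.23 with a library or replicate left out. That of SMARCA1 (1.49 points) was 4.32 with 5 kb margins, 0.149 with 50% covered, 0.595 in the upper 50%, 0 with equal length or equal bases, where both treatments were at 0, and 0.595 to 2.08 with a library or replicate left out. That of Orc6 (0.595 points) reversed to -0.595 with 5 kb margins or equal length and -0.298 with 50% covered or the upper 50%, and ran from -1.19 to 2.38 with a library or replicate left out. The cause was not tested. Receptor genes with no region (143) numbered 120 to 168 under the other settings and 143 to 152 with libraries left out. Without replicate 1 or 2 no gene test could reach p under 0.05, nor could those of 4 against 4 with the replicate block. The block left the other counts at 0. Over all genes, the 2911 higher with H2O2 were 1528 with gene ends, 4342 in the upper 50% of lists, 2136 with the replicate block, 1883 to 4029 with 1 library left out, and 0 with 50% covered, equal length, equal bases, no region over 10 kb or adjustment over every gene. The 1559 of OGG1 were 2626 in the upper 50%, 0 to 2692 with 1 library left out, and 0 with equal length, equal bases or adjustment over every gene. Of the comparisons with 0 genes called, SMARCA1 with H2O2 gave 1527 higher in the upper 50% of lists. OGG1 against SMARCA1 gave 3541 higher with 50% covered, 1555 lower with equal bases, 233 higher with the replicate block and 1443 higher without replicate 2 of OGG1 in NT siOrc6 cells. Orc6 against SMARCA1 gave 496 higher with 50% covered and 530 lower with equal bases, and OGG1 against Orc6 gave 818 higher and 172 lower with equal length. Depth is unknown, so a gene with no region is one where none was called.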

Other observations

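The authors' deposited windows for SMARCA1 in siOrc6 cells, named up and ns for each treatment, lie outside the comparisons above, and the sources used here do not say which samples they set against each other. In the authors' deposited table of H2O2 windows named up, 0 receptor genes of chromosome 11 were touched, against 596 other genes of the chromosome (52.8%). In the authors' deposited table of H2O2 windows named ns, OR52K1, OR9Q1 and OR2AT4 were touched, against 493 other genes (43.7%). In the authors' deposited tables of NT windows, up held 0 receptor genes against 413 other genes, and ns held OR9Q1 alone against 115 other genes.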
